A study of Mus musculus with 6 samples.

Results

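The 10 genes described here, Fabp4, Fabp5, Fabp3, Cd36, Gpihbp1, Pparg, Meox2, Tcf15, Cav1 and Cavin1, were listed by name as fatty acid (FA) uptake and binding genes of capillaries and their regulators. They are 10 of the 37991 genes in the count table. The list goes by gene name and uses no threshold on a measured value, but it was drawn up with earlier results of these data known. RNA sequencing was carried out on bone endothelial cells (BECs) freshly isolated from the tibia of c57/Bl6 mice of 12 weeks, with 3 libraries from females and 3 from males. The labels name no treatment. Cells were purified by endomucin, a sialomucin of venous and capillary endothelium, and the comparison asks how transcripts differ between the male and female preparations labelled as BECs. All samples of the table belong to these groups. In the tests of single genes, p-values set the difference between the sexes against the spread between libraries within a sex. Whether the 6 libraries come from separate animals is not spelled out in the labels.

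FAs reach a tissue across its capillaries. Lipoprotein lipase (LPL), held on the luminal surface of capillaries by GPIHBP1, releases FAs from triglyceride-rich lipoproteins, CD36 takes up long-chain FAs at the plasma membrane, and small cytoplasmic fatty acid binding proteins carry them inside the cell. PPARγ, a nuclear receptor activated by FAs, drives transcription of Fabp4 and Cd36, the homeobox factor MEOX2 and the basic helix-loop-helix factor TCF15 act as a pair in the capillary endothelium of heart and skeletal muscle, and caveolin and cavin proteins build the caveolae of the endothelial membrane. Several of these genes are also used by other cells: Fabp4, Pparg and Cd36 are prominent in adipocytes and in macrophages.

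Total counts per library lay between 47678806 and 58325745, so that 3 counts corresponded to 0.0477 to 0.0639 CPM (counts scaled to a common library size, with TMM factors). The share of counts on 24 endothelial markers was 0.0697%, 0.0424% and 0.0658% in females and 0.0390%, 0.0271% and 0.0392% in males, with a difference of -0.0242 percentage points (p = 0.1 in a two-sided exact permutation test, which 3 against 3 libraries cannot go below). None of the 24 endothelial markers was at 0 in any library, and all 24 had a negative log2 fold change of males over females. The summed level of 12 neutrophil markers was 19240 to 23560 CPM in females and 32740 to 44450 CPM in males, against 445.5 to 667.8 and 271.2 to 416.1 CPM for the endothelial markers. That of 8 erythroid markers was 12120 to 17410 CPM in females and 18450 to 27100 CPM in males. In every library the endothelial markers thus summed to far less than those of neutrophils and of erythroid cells, so the values below are those of preparations that held RNA of several cell types. In bulk RNA, fewer cells of a type and less RNA per cell cannot be told apart, which holds for every difference given here. The summed level of 12 macrophage markers was 5132 to 5594 CPM in females and 3315 to 4495 CPM in males, all 12 with a negative log2 fold change. That of 7 adipocyte markers was 84.79 to 182.4 CPM in females and 26.18 to 60.93 CPM in males, of which Adipoq, the adipokine adiponectin, made up the most, while Plin1, the lipid droplet coat protein, had 59, 44 and 91 counts in females and 8, 0 and 7 in males, and Lep was at 0 in 5 libraries. Of the 6 adipocyte markers tested, 4 had a negative and 2 a positive log2 fold change, Plin4 (0.87) and Retn (0.17). The median log2 fold change was -0.98 over the endothelial, -0.43 over the macrophage and -1.67 over the 6 adipocyte markers tested. It was -0.71 over 7 megakaryocyte and platelet markers, all 7 negative, and -0.31 over 7 stromal markers, 6 of them negative. The part of these cell types in the differences described here was not tested.

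Fabp4 stood first among the 10 genes in level per transcript length. Divided by the length of the canonical transcript, Fabp4 averaged 126.3 CPM per kb (SD 66.4, n = 6 libraries) and lay above 97.1% of the 14333 protein-coding genes tested. Fabp5 followed at 62.4 ± 14.6 CPM per kb (SD, n = 6), then Pparg at 24 ± 5.11 and Cd36 at 12.7 ± 3.69. Cavin1 at 8.71 ± 3.97 and Gpihbp1 at 6.21 ± 4.66 CPM per kb came in the middle of the range of expressed genes, above 63.5% and 55.1% of them. Cav1 at 1.27 ± 0.601, Meox2 at 0.856 ± 0.270, Tcf15 at 0.281 ± 0.121 and Fabp3 at 0.137 ± 0.0803 CPM per kb were low, above 25.1%, 20.5%, 10.7% and 5.27% of the genes tested. Neighbours in this order had ranges over the 6 libraries that overlapped, except Fabp5 above Pparg and Meox2 above Tcf15. Fabp4 nevertheless exceeded Fabp5 in all 6 libraries when compared library by library. Part of the order depended on the length used. Divided by the length of all annotated exons together, Cavin1 (5.71) stood above Cd36 (3.53) and Meox2 (0.856) above Cav1 (0.722). The other ranks were unchanged.

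**Figure D1:**
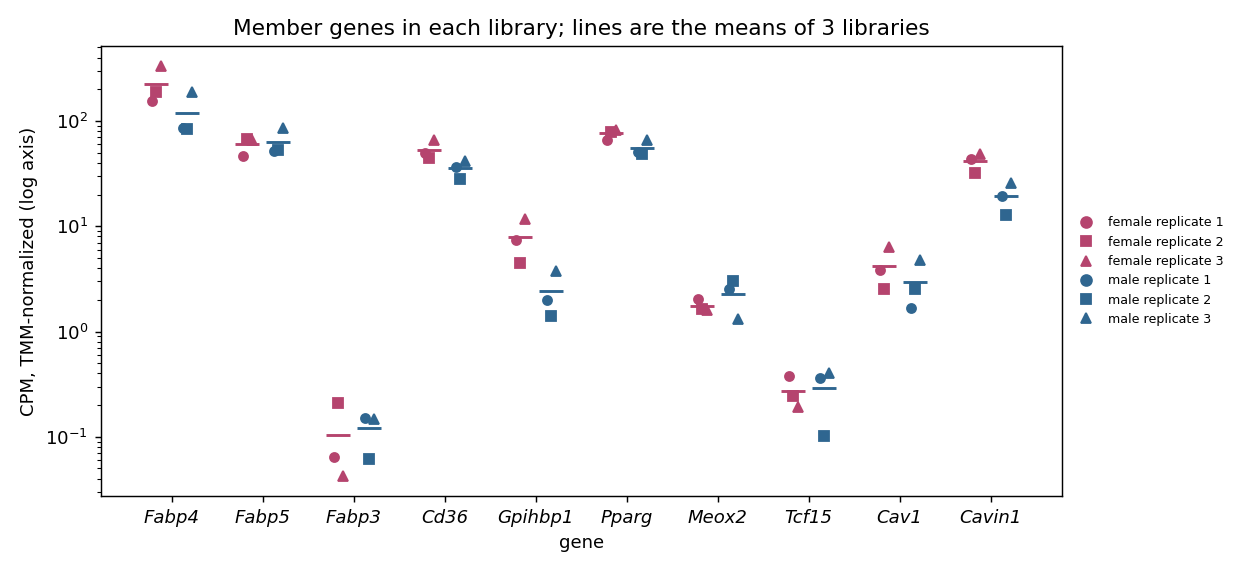
TMM-normalized CPM (log axis) of the 10 genes in each of the 6 libraries, female in red and male in blue, with a horizontal line at the mean of 3 libraries. The male libraries of Cd36, Gpihbp1, Pparg and Cavin1 all sit below the female ones, whereas those of the other 6 genes overlap.

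Across the 9 genes that passed the filter on low counts (edgeR's filterByExpr, which Fabp3 did not pass), 6 had a negative and 3 a positive log2 fold change of males over females, where 50.2% of all 19480 genes tested were negative. The median was -0.51, against -0.001 over all genes tested. After Benjamini-Hochberg adjustment over all genes tested, 0 of 9 members passed a threshold of 0.05 in edgeR's quasi-likelihood test. Of all genes tested, 0.0411% did (8 genes), 0.0154% lower and 0.0257% higher in males. At an unadjusted p under 0.05 in the same test, 5 of 9 members were lower in males, beside 4.76% of all genes, and 0 were higher, beside 5.03%. DESeq2's Wald test called 2 members lower in males, Gpihbp1 and Cavin1, and 0 higher, where it called 0.735% of 17561 genes lower and 1.28% higher (2.02% in either direction). With the replicate number as a block, edgeR called 4 members lower, where it called 1.06% of genes lower, 1.13% higher and 2.2% in either direction. In 4 of 9 members every male library lay below every female library, which holds for 7.29% of all genes tested, and none lay above in all males, beside 7.25%.

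**Figure D2:**
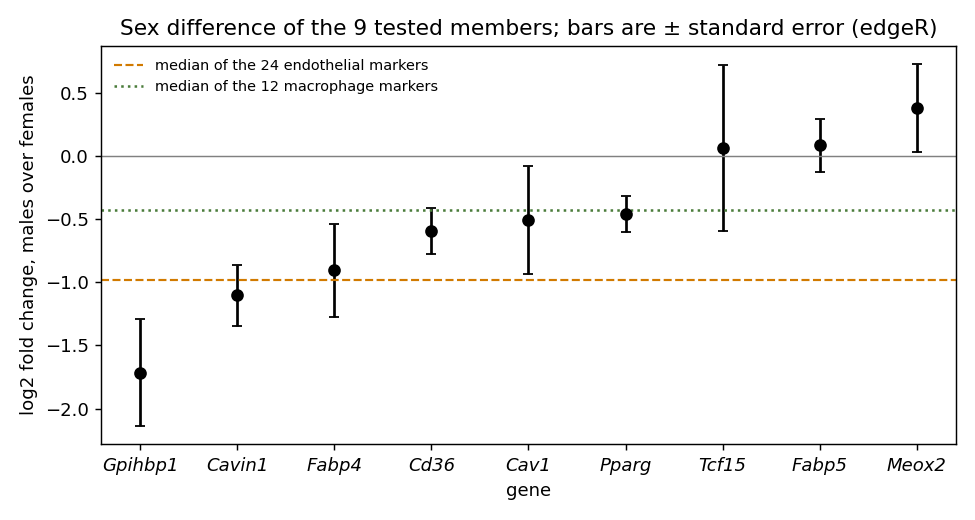
Log2 fold change of males over females with its standard error from edgeR for the 9 members tested, with dashed and dotted lines at the median of the 24 endothelial (-0.98) and 12 macrophage markers (-0.43). Gpihbp1 and Cavin1 lie farthest below 0, at -1.72 and -1.10, and Meox2 is the farthest above, at 0.38.

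Fabp4 (chr3:10268785-10273737, minus strand, GRCm39), the fatty acid binding protein of adipocytes and of capillary endothelium, has 4 exons. Its level was 154, 187.5 and 330.1 CPM in females 1, 2 and 3 and 86.6, 84.2 and 187.9 CPM in males 1, 2 and 3. Male 3 was level with female 2, so the sexes overlapped, and the other two males lay below all females. The mean was 223.9 ± 93.4 CPM in females and 119.6 ± 59.2 CPM in males (SD, n = 3 libraries each), a ratio of 1.87. The log2 fold change was -0.91 (SE 0.370), with an adjusted p of 0.474 in edgeR's quasi-likelihood test and 0.575 in DESeq2. Counts ran from 4147 to 15496 per library, so counting error was small beside the spread between libraries of one sex. The study's quantitative PCR primers for Fabp4 show which stretch of the transcript that assay reads. Both lie in exon 3, within the coding sequence, at positions 418 to 437 and 490 to 509 of the 1360-base canonical transcript, and they are printed in capitals throughout.
Fabp4-F: CATAACCCTAGATGGCGGGG
Fabp4-R: CCAGCTTGTCACCATCTCGT
The forward primer matched chr3:10270378-10270397 (GRCm39, minus strand) and the reverse primer the complement of chr3:10270306-10270325, for a product of 92 bases. Both sites were held by 13 annotated transcripts, all of them of Fabp4, and 0 other genes held either site.

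Fabp5 (chr3:10077602-10081674, plus strand, 4 exons), the broadly expressed epidermal form that binds the same ligands, lies in the same cluster on chromosome 3. It had 46.5, 67.4 and 66.5 CPM in females and 52.0, 53.1 and 86.2 CPM in males. The sexes overlapped, with male 3 the highest library and female 1 the lowest. Means were 60.1 ± 11.8 and 63.8 ± 19.5 CPM (SD, n = 3 each), and the log2 fold change was 0.09 (SE 0.212, edgeR adjusted p = 0.931). Of the other genes of that cluster, Pmp2, which encodes the myelin form, had 0 counts in the 6 libraries together, Fabp9, the testis form, had 2, and Fabp12 had 10, against 52724 for Fabp4 and 19056 for Fabp5. The cluster was thus read almost wholly from its outer member Fabp5 and from Fabp4.

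The proportion of Fabp5 to Fabp4 can be read within each library. There were 0.302, 0.36 and 0.201 Fabp5 counts per Fabp4 count in females and 0.6, 0.631 and 0.459 in males, and every male library exceeded every female one. The means were 0.288 ± 0.08 and 0.563 ± 0.0918 (SD, n = 3 each; p = 0.1 in a two-sided exact permutation test, its floor here). This ratio was chosen after its values were seen, and the test cannot go lower for any ratio that separates the sexes, so the values are a description.

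Fabp3 (chr4:130202388-130209259, plus strand), the binding protein of heart and skeletal muscle, was close to the floor of detection. It had 4, 11 and 2 counts in females and 8, 3 and 7 in males. The sexes overlapped, with both the lowest and the highest library among the females, and edgeR's filter left the gene out (DESeq2 log2 fold change 0.20, SE 1.25, with no adjusted p). The 95% exact Poisson interval of female 3, the lowest, was 0.00516 to 0.154 CPM, and that of female 2, the highest, 0.104 to 0.372 CPM. Zcchc17 overlaps Fabp3 on the opposite strand with 10200 counts in all, and without the strand setting of the counting the few Fabp3 counts cannot be attributed to it alone.

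Cd36 (chr5:17986432-18094067, minus strand, 15 exons), the scavenger receptor that takes up long-chain FAs, had 49.7, 44.8 and 66.1 CPM in females and 36.6, 28.0 and 42.1 CPM in males. The highest male lay below the lowest female. Means were 53.5 ± 11.2 and 35.6 ± 7.13 CPM (SD, n = 3 each), 1.51-fold higher in females. The log2 fold change was -0.59 (SE 0.182), with an adjusted p of 0.320 in edgeR (unadjusted 0.00863) and 0.110 in DESeq2.

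The 250 bases before a start site of Cd36, Pparg and Cavin1, all lower in every male library, are shown to let the sequence in front of these genes be compared. The windows come from RefSeq on GRCm38.p6 and are written 5′ to 3′ on the gene's strand. Capitals mark matches, on either strand, of AGGTCA (the nuclear receptor half-site), GGGCGG (the core of the Sp1 site) and TATAAA (the TATA box), none overlapping another.
Cd36: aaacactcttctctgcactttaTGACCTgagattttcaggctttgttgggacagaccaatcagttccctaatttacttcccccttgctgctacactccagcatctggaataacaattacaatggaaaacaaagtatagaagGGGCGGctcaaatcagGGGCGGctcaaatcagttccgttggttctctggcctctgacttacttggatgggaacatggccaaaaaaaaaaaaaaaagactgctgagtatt
Pparg: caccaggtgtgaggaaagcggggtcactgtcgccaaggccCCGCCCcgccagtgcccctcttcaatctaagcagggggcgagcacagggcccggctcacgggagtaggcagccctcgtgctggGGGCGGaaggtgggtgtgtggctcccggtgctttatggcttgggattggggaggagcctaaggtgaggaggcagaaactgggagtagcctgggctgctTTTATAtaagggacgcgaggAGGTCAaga
Cavin1: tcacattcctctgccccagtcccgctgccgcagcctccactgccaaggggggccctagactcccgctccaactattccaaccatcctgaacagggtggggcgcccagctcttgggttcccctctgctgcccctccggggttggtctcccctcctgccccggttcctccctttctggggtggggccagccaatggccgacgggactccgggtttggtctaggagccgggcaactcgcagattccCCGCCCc
The Cd36 window is chr5:17835897-17836146, minus strand, the Pparg window chr6:115362099-115362348, plus strand, and the Cavin1 window chr11:100970618-100970867, minus strand. AGGTCA began 228 bases before the Cd36 start, on the opposite strand, and 9 bases before this Pparg start, and it was in 14.0% of the 32851 windows of the table. The Cavin1 window held GGGCGG 7 bases before the start on the opposite strand, a motif found in 32.7% of all windows, while TATAAA, in 12.4%, was in the Pparg window 29 bases before the start, on the opposite strand. Pparg had 3 windows, of which the one printed held the most matches and another, starting at 115421816, held 0. AGGNCA repeated after 1 base of any kind, the layout that PPARγ and RXR bind, was in 0.338% of windows, and GGTCA followed after 3 bases by TGACC in 0.0639%. Neither was matched in the 10 windows of the 6 members with one (Fabp3, Cd36, Cav1, Pparg, Cavin1 and Meox2), which says only that these letters are not there. Fabp4, Fabp5, Gpihbp1 and Tcf15 had no entry.

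Gpihbp1 (chr15:75468474-75471331, plus strand, 4 exons), the endothelial anchor of LPL, differed most among the members. It had 7.41, 4.52 and 11.8 CPM in females and 2.01, 1.4 and 3.80 CPM in males. Every male lay below every female, although female 2 and male 3 were close. Means were 7.90 ± 3.64 and 2.4 ± 1.24 CPM (SD, n = 3 each), 3.29-fold higher in females. The log2 fold change was -1.72 (SE 0.423), with an adjusted p of 0.207 in edgeR (unadjusted 0.00221) and 0.00137 in DESeq2, so that the call depended on the test.

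The ligand of GPIHBP1, Lpl, was read much more. Lpl had 1086, 778 and 1054 CPM in females and 556, 355 and 943 CPM in males, and male 3 exceeded female 2. Its means were 973 ± 169 and 618 ± 299 CPM (SD, n = 3 each; log2 fold change -0.65, edgeR adjusted p = 0.531). There were 0.00682, 0.00581 and 0.0112 Gpihbp1 counts per Lpl count in females and 0.00362, 0.00394 and 0.00402 in males, all males below all females (p = 0.1 in the same exact permutation test). This ratio too was chosen after its values were seen and is a description.

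Pparg (chr6:115337675-115468268, plus strand, 8 exons) had 66.15, 79.4 and 83.0 CPM in females and 51.1, 49.1 and 66.01 CPM in males. The sexes did not overlap, but female 1 and male 3 were as good as equal: their 95% exact Poisson intervals were 64.15 to 68.19 and 63.72 to 68.36 CPM. Means were 76.2 ± 8.87 and 55.4 ± 9.26 CPM (SD, n = 3 each). The log2 fold change was -0.46 (SE 0.145, edgeR adjusted p = 0.334, unadjusted 0.00973, DESeq2 adjusted p = 0.169).

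The other regulators, which are known from the FA-consuming capillaries of heart and muscle, were low, with differences inside the spread between libraries. Meox2 (chr12:37158533-37229533, plus strand) had 2.04, 1.65 and 1.6 CPM in females and 2.54, 3.00 and 1.33 CPM in males. Males held both the highest and the lowest library, and the log2 fold change was 0.38 (SE 0.349, edgeR adjusted p = 0.767). Tcf15 (chr2:151985474-151991034, plus strand) had 24, 13 and 9 counts in females and 19, 5 and 19 in males. Its log2 fold change was 0.06 (SE 0.656, edgeR adjusted p = 0.986). Female 1, with the most counts, and male 2, with the fewest, had 95% exact Poisson intervals of 0.245 to 0.568 and 0.0330 to 0.237 CPM, which did not overlap.

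Cav1 (chr6:17306140-17341451, plus strand, 3 exons), the scaffold protein of caveolae, had 3.87, 2.54 and 6.28 CPM in females and 1.67, 2.52 and 4.74 CPM in males. Only male 1 lay clearly below the female range, and male 2 was level with female 2. Means were 4.23 ± 1.90 and 2.98 ± 1.59 CPM (SD, n = 3 each; log2 fold change -0.51, SE 0.427, edgeR adjusted p = 0.748).

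Cavin1 (chr11:100847559-100861713, minus strand, 2 exons), the cavin that coats caveolae and is required to form them, had 43.6, 32.2 and 48.7 CPM in females and 19.5, 12.8 and 25.7 CPM in males. All males lay below all females, the highest male well under the lowest female. Means were 41.5 ± 8.44 and 19.3 ± 6.47 CPM (SD, n = 3 each), 2.15-fold higher in females. The log2 fold change was -1.10 (SE 0.240), and the adjusted p was 0.144 in edgeR (unadjusted 0.000966) and 0.000949 in DESeq2. Without male replicate 3, edgeR called Cavin1 lower in males at an adjusted p of 0.0455, beside 0.151% of 19925 genes tested, and Gpihbp1 had an adjusted p of 0.051. Leaving out any other library, edgeR called neither gene, with adjusted p-values of 0.179 to 0.449 for Cavin1 and 0.191 to 0.779 for Gpihbp1.

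Of the 9 members tested, 6 had the same highest library within each sex. Female 3 was the highest female and male 3 the highest male for Fabp4, Cd36, Gpihbp1, Pparg, Cav1 and Cavin1, and female 3 was the highest of all 6. Male 2 was the lowest library for Fabp4, Cd36, Gpihbp1, Pparg and Cavin1, and male 1 for Cav1. Of the 24 endothelial markers, 14 were likewise highest in female 3, highest among males in male 3 and lowest in male 2, as were 1 of 7 adipocyte markers (Adipoq), 2 of 12 macrophage, 2 of 7 stromal and 1 of 5 B lineage markers, and 0 of the neutrophil, erythroid and megakaryocyte markers. The part of these cells in it was not tested. The highest over the lowest library was 8.4-fold for Gpihbp1, 3.92-fold for Fabp4, 3.8-fold for Cavin1 and 1.69-fold for Pparg. Fabp5 and Tcf15 were highest in male 3, and Meox2 was highest in male 2 and lowest in male 3, a 2.26-fold range. The SD of the log2 ratio between 2 genes over the 6 libraries, which is 0 where they move in parallel, was smallest for Cd36 and Pparg (0.209) and largest for Gpihbp1 and Meox2 (1.43). For Fabp4 it was 0.404 with Cav1, 0.406 with Cavin1, 0.411 with Cd36, 0.464 with Pparg, 0.537 with Gpihbp1, 0.629 with Fabp5 and 1.13 with Meox2. These libraries share one table and one normalization, and the values are descriptive.

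**Figure D3:**
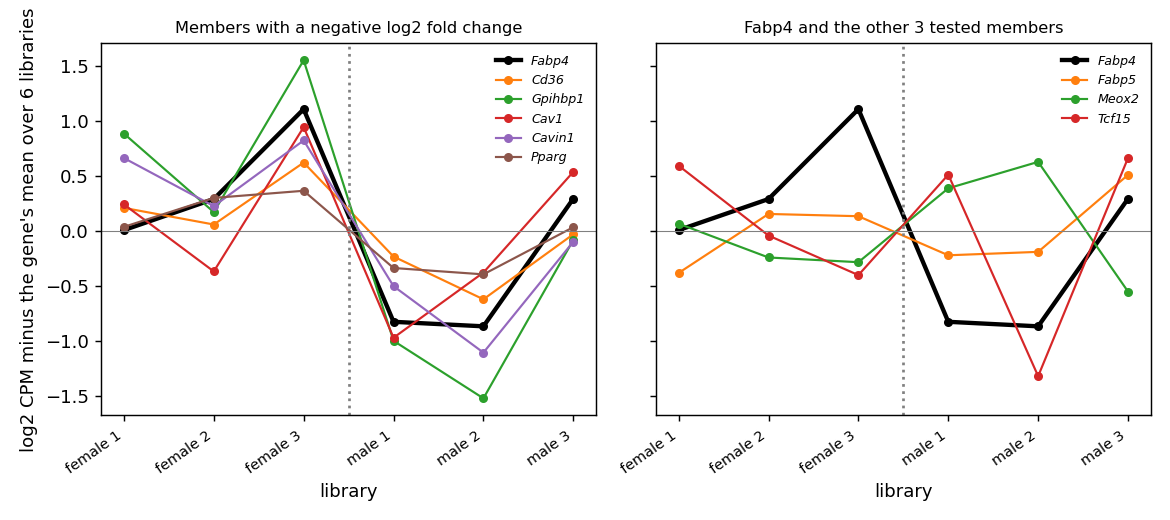
Log2 CPM of each member minus its own mean over the 6 libraries, with the library on the horizontal axis and Fabp4 in black in both panels; lines only join values of one gene, since replicates have no order. The members with a negative log2 fold change peak in female 3 and, among males, in male 3. Fabp5 and Tcf15 also peak in male 3 but not, among females, in female 3, and Meox2 peaks in neither.

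Of 10478 protein-coding genes with a mean of at least 5 CPM, those whose log2 CPM followed Fabp4 most closely by that SD included S100a16 (0.17), Fam167b (0.225), Wwtr1 (0.264) and Sox18 (0.265). Sox18 is a transcription factor of endothelium. Lpl ranked 76. Among the members, Cavin1 ranked 52, Cd36 56, Pparg 146, Gpihbp1 435 and Fabp5 1586. Emcn, the gene of the marker used to purify the cells, ranked 31, the endothelial cadherin gene Cdh5 ranked 492, and Adipoq ranked 1934. The SD also grows where a gene moves the same way by larger steps. Adipoq shared its highest and lowest libraries with Fabp4, at a log2 fold change of -1.69 against -0.91. These markers were picked from longer lists, without a macrophage marker, and the cell source of Fabp4 was not tested.

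Counts were next set against the endothelial markers of the same library, since these were themselves lower in males. Per count of the geometric mean of 24 endothelial markers, Gpihbp1 stood at 0.424, 0.454 and 0.631 in females and 0.244, 0.248 and 0.352 in males. Cavin1 stood at 2.49, 3.235 and 2.61 in females and 2.36, 2.27 and 2.385 in males. In both genes all males remained below all females, narrowly so for Cavin1, beside 0.267% of all genes tested. For Fabp4 the ratio was 8.81, 18.8 and 17.7 in females and 10.5, 14.9 and 17.4 in males, and the sexes overlapped throughout. The mean ratio of Cd36 was 3.63 ± 0.831 in females and 4.43 ± 0.527 in males, that of Pparg 5.40 ± 2.25 and 7 ± 1.47, and that of Fabp5 4.33 ± 2.16 and 7.90 ± 1.56 (SD, n = 3 each), each with overlap. On this scale the median log2 fold change of all genes tested was 0.89, so most genes stood higher in males, and in 26.0% of all genes tested every male library lay above every female one. Fitted with edgeR on the endothelial scale, the log2 fold change of Gpihbp1 was -0.84, that of Cavin1 -0.25, that of Fabp4 -0.08 and that of Fabp5 0.87, and the adjusted p-values were 0.188, 0.638, 0.876 and 0.162. The 24 markers themselves ran on this scale from -0.60 (Flt4) to 0.86 (Tal1), so the scale averages genes that did not move alike. Cavin1 lay within the range of the markers and Gpihbp1 below it. Meox2 stood farthest from 0 on this scale, at a log2 fold change of 1.39 (edgeR adjusted p = 0.113), with a mean ratio of 0.123 ± 0.0402 in females and 0.321 ± 0.205 in males (SD) and overlap.

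**Figure D4:**
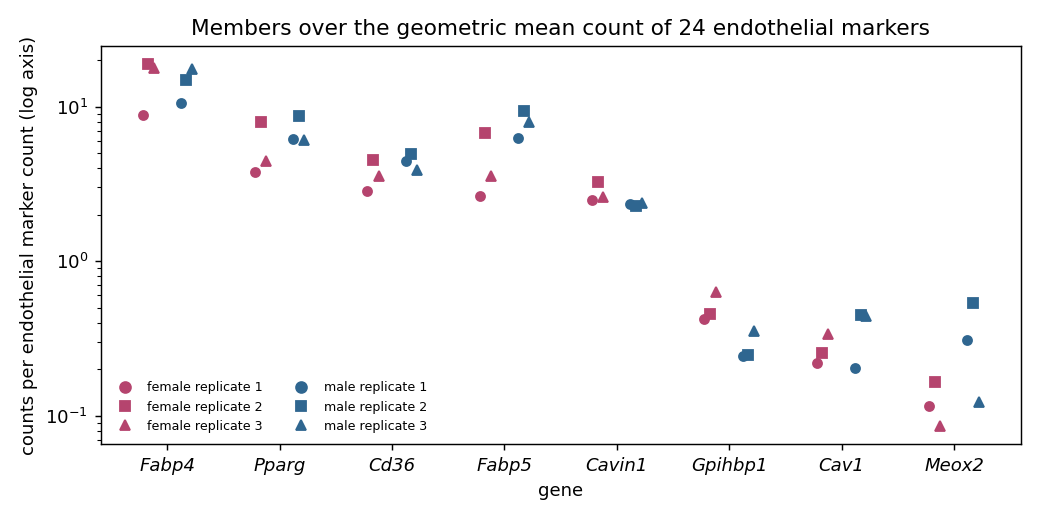
Counts of 8 members per geometric mean count of 24 endothelial markers in the same library (log axis), female in red and male in blue. The male libraries of Gpihbp1 (0.244 to 0.352) and Cavin1 (2.27 to 2.385) sit below the female ones, and the other 6 shown overlap.

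The wider FA handling pathway was described by 7 lists of 53 other genes, of which 41 were tested. There were 29 negative and 12 positive log2 fold changes, with a median of -0.23, where 50.2% of all genes tested were negative. In edgeR's test 0 of 41 passed the adjusted threshold, while 9 were lower and 2 higher at an unadjusted p under 0.05, beside 4.76% and 5.03% of all genes. DESeq2 called 2 lower, Slc27a6 and Cavin3, beside 0.735% of all genes. All male libraries lay below all female ones in 9 genes and above in 2 (Slc27a4 and Acsl1), beside 7.29% and 7.25% of all genes.

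Slc27a6, the fatty acid transport protein FATP6, stood at 2.96, 1.51 and 1.62 CPM in females and 0.209, 0.142 and 0.569 CPM in males. All males lay well below all females (log2 fold change -2.73, SE 0.547, edgeR adjusted p = 0.108, DESeq2 adjusted p = 2.06e-04). Of the 5 fatty acid transport proteins tested, 3 were positive, among them Slc27a4 (FATP4) at 56.7 ± 4.50 CPM in females and 73.9 ± 3.27 CPM in males (log2 fold change 0.38, edgeR adjusted p = 0.280). Cavin3, a partner of Cavin1 in the caveolar coat, had 9.16, 9.04 and 12.0 CPM in females and 4.21, 3.02 and 6.47 CPM in males, again without overlap (log2 fold change -1.14, SE 0.279, edgeR adjusted p = 0.200, DESeq2 adjusted p = 0.00507). Cavin2 went from 8.08 to 20.3 CPM in females and from 4.45 to 12.5 CPM in males, with overlap (log2 fold change -0.90, edgeR adjusted p = 0.538). Of the 8 caveolar coat and shaping genes tested, 6 were negative and 3 were lower in all males, Cavin3, Ehd4 and Pacsin3, beside 50.2% and 7.29% of all genes.

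All 5 genes listed as lipoprotein receptors were negative, and 3 of them, Scarb1, Vldlr and Lrp1, were lower in all males, against the same shares of all genes. The smallest difference was that of Acvrl1, with a log2 fold change of -0.07 (SE 0.105, edgeR adjusted p = 0.878). Lrp1, a large endocytic receptor of lipoprotein remnants, had 261, 215 and 232 CPM in females and 197, 126 and 173 CPM in males (log2 fold change -0.51, edgeR adjusted p = 0.343), and Scarb1, the high-density lipoprotein receptor, had a log2 fold change of -0.37 (edgeR adjusted p = 0.334). In the LPL axis 5 of 8 genes tested were negative, in the long-chain acyl-CoA synthetases 4 of 5, and in the nuclear receptors and their partners 6 of 8, including Rxra, the dimer partner of PPARγ (log2 fold change -0.39, edgeR adjusted p = 0.383). The list of nuclear receptors and partners also held Meox1, Vegfb and Foxo1, and its median log2 fold change was only -0.046. Of 7 other fatty acid binding proteins 2 were tested, 1 negative and 1 positive, and Fabp2, Fabp6 and Pmp2 had 0 counts in all libraries.

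**Figure D5:**
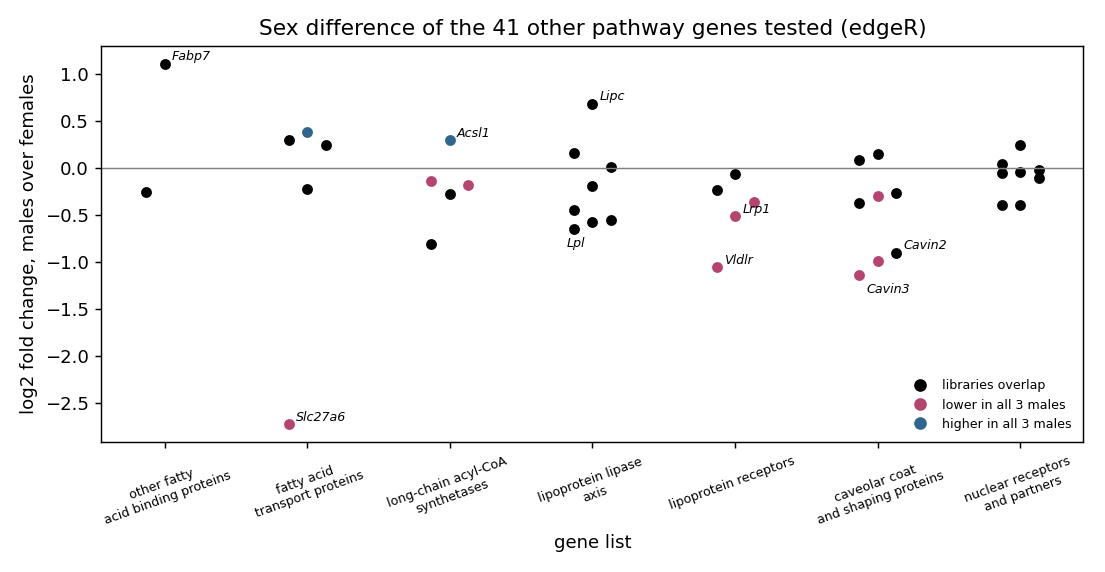
Log2 fold change of males over females (edgeR) for the 41 other pathway genes tested, by list; points in red were lower and points in blue higher in all 3 males. Slc27a6 stands farthest below 0, at -2.73.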

How the data were processed

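RNA was measured in 6 BEC libraries. Whole-number counts per Ensembl gene and library were deposited by the authors without normalization. Per the labels, libraries were polyA RNA with 40-nucleotide paired-end reads, and the submitters' processing notes name TopHat2 2.0.11, featureCounts, mm9 and NCBIM37. The paper names STAR and GRCm39 instead, and also a total RNA kit, longer reads and another instrument. Which holds for these libraries could not be settled from the counts. Annotation release and strand setting are not given in the sources used here. Reads shared with overlapping genes could therefore fall on either.

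Symbols, coordinates and lengths came from GENCODE M39 (GRCm39), to which 31073 of 37991 genes matched. Genes passing filterByExpr (19480) were fitted in edgeR 4.0.16 (quasi-likelihood, robust, TMM), males over females without covariate, with Benjamini-Hochberg adjustment over all genes and a threshold of 0.05. DESeq2 1.42.0 was the alternative test. Other alternatives were DESeq2 size factors, total counts, endothelial scaling, no filter, the replicate number as a block, and leaving out each library. No 2 libraries were alike (lowest chi-square per degree of freedom 31.5 over 15 pairs). Likeness used log2(CPM + 0.1). Intervals and floors cover counting error only.

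The 10 genes, the pathway lists and the cell type markers were chosen with earlier results of these data known. Named genes are the members, pathway genes called in any edgeR fit or DESeq2, the Fabp cluster, the 5 genes most like Fabp4 (1 of them is not reported here), and a few whose values bear on them, named after their values were seen. The other marker lists summed, in females and males, to 1372 to 2845 and 1184 to 2291 CPM for 7 stromal markers, 49.17 to 192.1 and 36.27 to 99.63 CPM for 7 megakaryocyte markers, and 2472 to 2862 and 2392 to 2817 CPM for 5 B lineage markers.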

Additional observations from a re-analysis of the deposited data

How the results depend on the processing

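The number of genes called was 8 as reported, 14 with total counts alone, 372 with scaling to endothelial markers, 98 without a filter and 354 in DESeq2. Members called were 0 as reported and 2 in DESeq2, and other pathway genes called were 0 as reported, 1 without a filter and 2 in DESeq2. Endothelial scaling moved the median of the members to 0.37 and reversed Cd36 (0.29), Pparg (0.37) and Cav1 (0.42), none of them called, while the median of all genes moved to 0.89. The replicate numbers were not taken to pair the samples, since the correlations of same-numbered deviations were 0.208, 0.0481 and 0.317, not all over 0.1. Each female correlated best with the same-numbered male, but male 2 correlated better with female 1 (0.137) than with female 2. With the replicate block, 428 genes were called, among them 4 members lower in males (Fabp4 at an edgeR adjusted p of 0.00151, Cd36 0.0144, Gpihbp1 0.00158, Cavin1 0.000726), beside 1.06% of all genes, and 4 other pathway genes (Slc27a6, Cavin3, Cavin2 and Lrp1), and Tcf15 was at -0.039. Leaving out each library in turn gave 5 to 96 genes called, the 96 without male replicate 3 and the 5 without female replicate 2, and 0 to 1 members called and 0 to 2 other pathway genes, the 1 and the 2 both without male replicate 3. The median of the members ranged from -0.73 to -0.40. Fabp4 ranged from -1.39 to -0.52, Gpihbp1 from -2.21 to -1.31, Cavin1 from -1.36 to -0.88, Cd36 from -0.73 to -0.41, Pparg from -0.61 to -0.38 and Cav1 from -1.01 to -0.11. Fabp5 ranged from -0.20 to 0.21, below 0 without female replicate 1 (-0.06) or male replicate 3 (-0.20), and Tcf15 from -0.24 to 0.47, below 0 without female replicate 2 (-0.01) or 3 (-0.13) and without male replicate 1 (-0.13) or 3 (-0.24). The difference in the endothelial share ranged from -0.0327 to -0.0190 percentage points. The cause of these shifts was not tested. Low counts limit Fabp3 and Tcf15, and 3 libraries a sex and RNA of several cell types limit every comparison.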
